A study of Strongylocentrotus purpuratus with 2 samples.

Results

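Histone transcripts were measured at 30 hours after fertilization in embryos of Strongylocentrotus purpuratus, the purple sea urchin. Members were the transcript models with a gene name that contains the word histone, leaving out histone deacetylases. The rule found 32 of 17269 models, on 387 table rows that each stand for 1 gene prediction. Values were present for 30 of the 32 models, out of 12943 models with a value in the whole tables. Both blank models, a second early H2b model (WHL22.387181.0) and Sp histone H3 CID, the centromeric H3 form, are not analysed further. Of the 30, 27 had a mean level of at least 1 CPM, in recovered reads scaled to the size of the library, and the other 3 lay under it.

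One library came from embryos microinjected as fertilized eggs with a morpholino against soxC, an antisense oligonucleotide. The other library came from embryos injected with glycerol. All embryos were raised at 15 °C, and the RNA of each sample came from about 1000 embryos. No library with a control morpholino was among the samples. The column labels of both libraries carry the same index and lane, and whether they shared a sequencing run is not given. With 1 library per group the difference has no replicate check and no test between the conditions. Effects of the morpholino cannot be told apart from other differences between the samples, such as their stage or sequencing run.

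Histones package DNA into nucleosomes, each built from the core types H2A, H2B, H3 and H4, with H1 bound to the linker DNA. Sea urchins are a classic case of histone switching. Cleavage-stage forms, stored in the egg, are followed by early forms from a large tandem cluster that is most active before the blastula hatches, and then by late forms from dispersed genes that stay in use in later embryos. The early and late genes are replication-dependent. They are transcribed during S phase, and their mRNAs end in a stem-loop in place of a poly(A) tail. Variants such as H2A.Z and H3.3 are made outside this programme from polyadenylated mRNAs. Whether poly(A) RNA was selected is not given in the sources used here, so the part of RNA selection in the low read numbers below was not tested.

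The deposited values are a normalized signal that advances in equal steps within a library, from which whole reads were recovered. RNA came from whole embryos, so fewer cells of a type cannot be told apart from less RNA per cell. Recovered reads summed to 4763994 in the morpholino library and 4414503 in the glycerol library. The soxC transcript itself had 14959 reads in the morpholino library and 4016 in the glycerol library. A morpholino acts on splicing or translation, so this value does not check the labels, and the morpholino library below means the library labelled SoxC morpholino. The most abundant model, which has no gene name, took 19.6% of the morpholino reads and 6.75% of the glycerol reads. The median log2 ratio, morpholino over glycerol, of the 8819 models of at least 1 CPM was -0.21 with the deposited scaling. Values called relative have this median subtracted. Ratios are given with their exact Clopper-Pearson 95% counting interval, which covers counting error only.

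Of 16 models with late among their names, 13 had a ratio above 1 in the morpholino over the glycerol library and 3 had one below it, 6 had an interval above 1, and 3 met the size rule given below. All 16 lay above the median of all models, with a median log2 ratio of 0.60, or 0.81 relative. The 11 other histone models of at least 1 CPM had a median log2 ratio of -0.16, or 0.05 relative, with 6 of them over the all-model median and 5 under it. Over all 27, the median was 0.05, or 0.26 relative, and 22 of the 27 exceeded the median of all models, as 50% of all models do by construction. Scaled by total reads the median over the 27 was 0.00, and scaled by the median of ratios it was 0.24.

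By the size rule, at least 2-fold with an interval that leaves out 1, 3 of the 27 histone models were higher, against 0.658% of all 8819 models. None was lower, a count of 0 against 4.75% of all models. These all-model shares move with the scaling, from 58 higher and 419 lower to 129 and 221 with the median of ratios, under which 7 of the 27 histone models were higher. By the interval alone, at any size, 7 of the 27 lay above a ratio of 1, against 3.99% of all models, and 1 lay below it, against 25.6% of all models. Scaled by total reads, 4 of the 27 histone intervals lay below 1, those of H3.3, H2aZ, macroH2a and early H1. Of the 7 above 1, 6 carry a late name and the other is the cleavage H4 model. Of the 6, 5 have late as their only class word, and the H3 model WHL22.283838.0 is also named early. Read numbers were small, with 10 of the 16 late models under 50 reads over both libraries. Few reads widen an interval, so such models leave out 1 less readily. The histone counts and the all-model shares were not matched for read number. Models of near-identical genes can share reads, and how the authors divided such reads is not known.

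**Figure D1:**
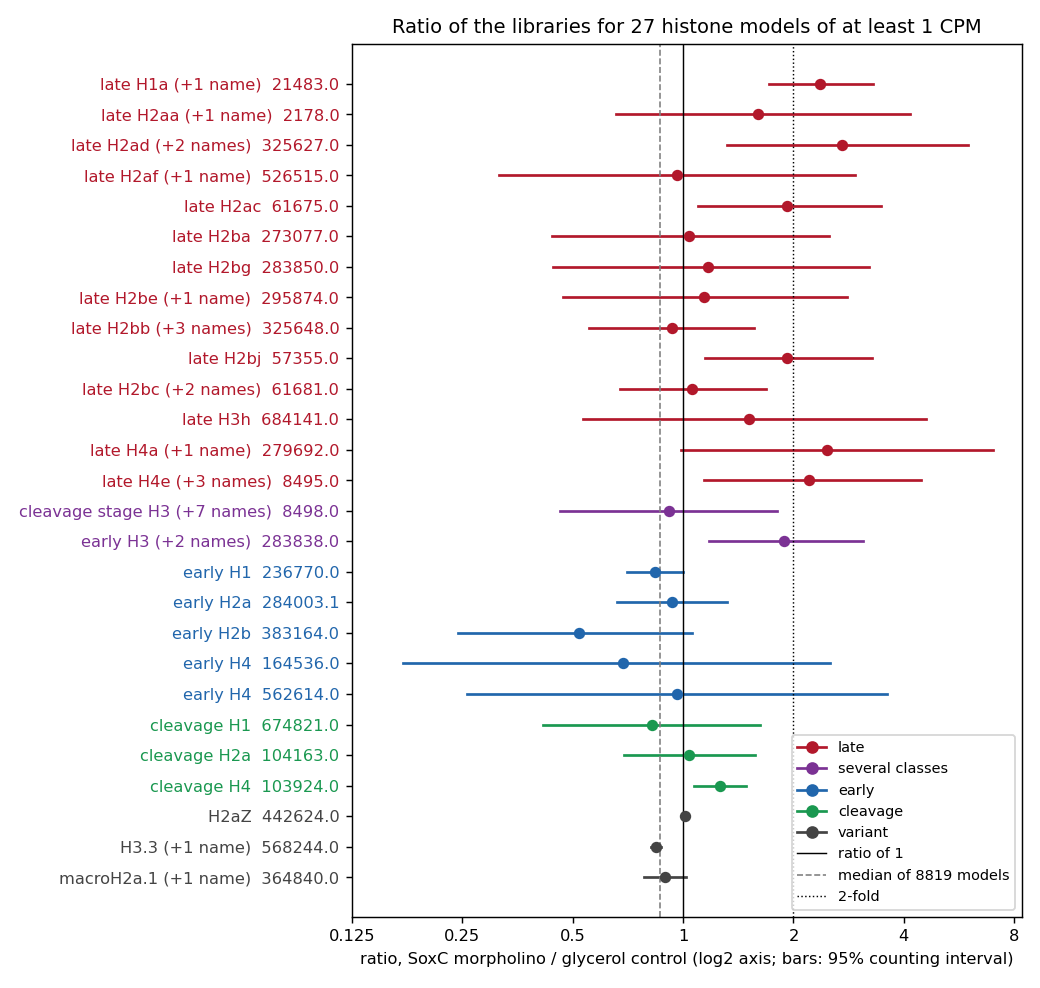
Ratio of the morpholino library over the glycerol library for the 27 histone models of at least 1 CPM, on a log2 axis, with 95% counting intervals as bars and 1 row per model, coloured by class; numbers after the names are model identifiers. The 14 late models sit from 0.932 to 2.71, and the 5 early models from 0.52 to 0.961.

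Of the 3 models higher by the size rule, that of the linker histone H1 had the most reads. The late H1 model (WHL22.21483.0, named Sp-late-histone-H1a and Sp-late-histone-H1b) had a signal of 351.0 in the morpholino library and 148.3 in the glycerol library, from 138 and 56 reads. Its ratio was 2.37 (1.72 to 3.29), or 1.44 relative on the log2 scale. The early H1 model (WHL22.236770.0) had a signal of 602.9 in the morpholino library and 717.5 in the glycerol library, from 237 and 271 reads. Its ratio of 0.84 has an interval of 0.703 to 1, which just includes 1. This model stands for 33 early H1 predictions and also carries the name Sp-Sirt-7, a sirtuin, so its reads may not all be histone reads. The cleavage H1 model (WHL22.674821.0) had 18 reads in the morpholino library and 21 in the glycerol library, a ratio of 0.824 (0.414 to 1.62). Within the H1 type, late H1 was thus higher in the morpholino library, while the early and cleavage models lay within counting error of a ratio of 1.

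Among the H2A genes, late models again held the high ratios. The model named Sp-late-Histone-H2ad, H2ag and H2aj (WHL22.325627.0) had a signal of 78.9 in the morpholino library and 29.1 in the glycerol library, from 31 and 11 reads. Its ratio of 2.71 (1.32 to 5.97) met the size rule, and the model also carries the uninformative name Sp-Unk_10. Sp-late-Histone-H2ac (WHL22.61675.0) had 40 reads in the morpholino library and 20 in the glycerol library, a ratio of 1.92 (1.10 to 3.47), short of 2-fold. Both models have intervals wholly above 1.

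The remaining late H2A models were less clear. The model of Sp-late-Histone-H2aa and H2ae (WHL22.2178.0) had 15 reads in the morpholino library and 9 in the glycerol library, and that of H2af and H2ah (WHL22.526515.0) had 8 in each. Their intervals, 0.657 to 4.15 and 0.314 to 2.94, are wide and include 1. Summed over the 4 late H2A models, reads were 94 in the morpholino library and 48 in the glycerol library, a ratio of 1.88 (1.32 to 2.72).

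Early and cleavage H2A stayed near a ratio of 1. The main early H2a model (WHL22.284003.1), which stands for 53 predictions and also carries the name Sp-Pars2, a mitochondrial prolyl-tRNA synthetase, had 68 reads in the morpholino library and 70 in the glycerol library. Its ratio was 0.933 (0.659 to 1.32). The other early H2a model (WHL22.122619.0), for 16 predictions and also named Sp-PRP-like-receptor, had 0 reads in the morpholino library and 3 in the glycerol library, too few for a ratio. Cleavage H2a (WHL22.104163.0) had 53 reads in the morpholino library and 49 in the glycerol library, a ratio of 1.04 (0.691 to 1.57).

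Late H2B models mostly lay near a ratio of 1. Of 6 late H2B models, Sp-late-Histone-H2bj (WHL22.57355.0) alone had an interval above 1, at 1.92 (1.15 to 3.28). Its signal was 122.1 in the morpholino library and 63.5 in the glycerol library, from 48 and 24 reads. The late H2B model with the most reads, named H2bc, H2bh and H2bi (WHL22.61681.0), had 43 reads in the morpholino library and 39 in the glycerol library, a ratio of 1.06 (0.671 to 1.68). The model of H2bb, H2bd, H2bf and H2bk (WHL22.325648.0) had 32 reads in the morpholino library and 33 in the glycerol library, a ratio of 0.932 (0.555 to 1.56). Their intervals overlap that of H2bj, and the difference between these models was not tested.

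The last 3 late H2B models had 11 to 13 reads in the morpholino library and 9 to 12 in the glycerol library. They were H2ba (WHL22.273077.0) at 1.04, H2be with H2bl (WHL22.295874.0) at 1.14, and H2bg (WHL22.283850.0) at 1.17, each with an interval that includes 1. H2bg also carries Sp-SphH2b1, a name without the word histone. The late H2B sum was 160 reads in the morpholino library and 128 in the glycerol library, a ratio of 1.20 (0.946 to 1.53). That interval includes 1, and a difference between late H2B and late H2A was not tested.

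The early H2b model (WHL22.383164.0), the member with the most predictions at 94, had the lowest ratio of the early models. Its signal was 33.1 in the morpholino library and 63.5 in the glycerol library, from 13 and 24 reads, a ratio of 0.52 (0.243 to 1.06). The interval includes 1, so it did not meet the rule. Cleavage H2b (WHL22.160761.0) had 4 reads in the morpholino library and 1 in the glycerol library. Sperm H2b2 (WHL22.667714.0), a form of the male germline that also carries Sp-Hypp_2940, had 3 in the morpholino library and 1 in the glycerol library. Both were under 1 CPM.

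The late H4 models were both at more than 2-fold. The model of H4b, H4e, H4f and H4g (WHL22.8495.0) had a signal of 81.4 in the morpholino library and 37.1 in the glycerol library, from 32 and 14 reads, a ratio of 2.20 (1.14 to 4.45). The model of H4a and H4c (WHL22.279692.0) had 18 reads in the morpholino library and 7 in the glycerol library, a ratio of 2.47 (0.985 to 7) whose interval just includes 1. Together they had 50 reads in the morpholino library and 21 in the glycerol library, a ratio of 2.29 (1.35 to 4.01).

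Cleavage H4 (WHL22.103924.0) was the cleavage model with the most reads and the only one of the 4 with an interval above 1. Its signal was 875.1 in the morpholino library and 696.3 in the glycerol library, from 344 and 263 reads, a ratio of 1.26 (1.07 to 1.48). It held 82.1% of cleavage reads in the morpholino library and 78.7% in the glycerol library, so the cleavage sum is mostly this model. Early H4 was thinly covered despite its copy number. The model for 82 predictions (WHL22.562614.0) had 6 reads in each library, and the single-prediction model (WHL22.164536.0) had 5 in the morpholino library and 7 in the glycerol library.

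For the H3 models that carry names of several classes, the classes could not be separated. The model WHL22.283838.0 carries the early H3 name together with the late names H3c and H3g, for 59 predictions in all. It had a signal of 139.9 in the morpholino library and 74.1 in the glycerol library, from 55 and 28 reads, a ratio of 1.89 (1.18 to 3.09). WHL22.8498.0 carries cleavage, early and late H3 names and an early H2a name, and had 19 reads in the morpholino library and 20 in the glycerol library, a ratio of 0.913 (0.461 to 1.8). Late H3h (WHL22.684141.0) had 11 reads in the morpholino library and 7 in the glycerol library, a ratio of 1.51 (0.535 to 4.59). The mixed model with the most reads, WHL22.283838.0, is itself among the 16 models counted as late. Its ratio lay between the lowest and highest of the models named only late, 0.932 and 2.71. Which of its genes gave the reads is not known.

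**Figure D2:**
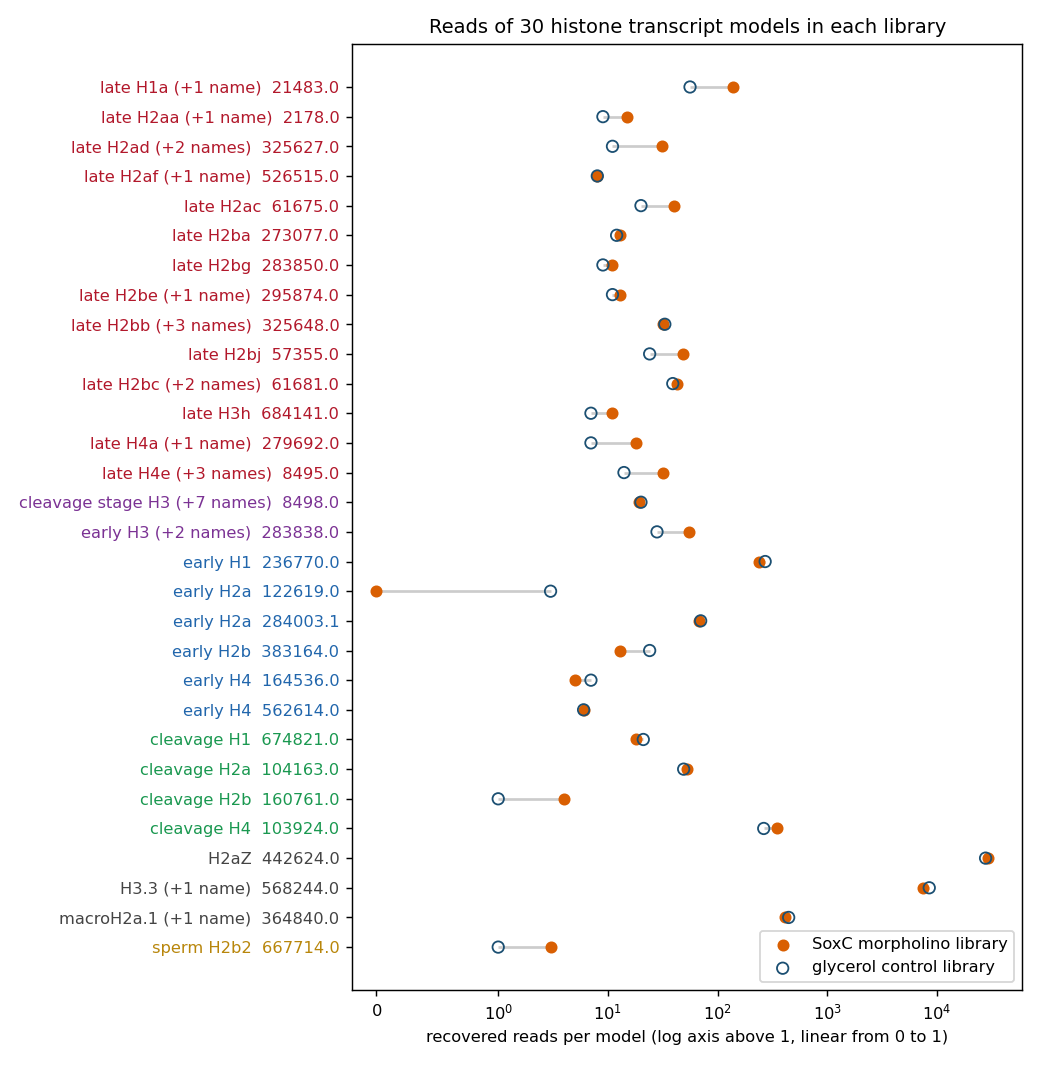
Recovered reads of the 30 histone models, with filled points for the morpholino library and open circles for the glycerol library, on an axis that is logarithmic above 1 read. H2aZ and H3.3 lie at 7439 to 29232 reads, and every late model lies at 138 reads or fewer.

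The variants held nearly all histone reads, with ratios from 0.842 to 1.01. H2aZ (WHL22.442624.0), named sp-histone H2aZ and Sp-Unk_41, had a signal of 74359.4 in the morpholino library and 73268.2 in the glycerol library, from 29232 and 27675 reads. Its ratio was 1.01 (0.998 to 1.03), or 0.23 relative on the log2 scale. This form replaces H2A in nucleosomes, including those at gene starts. The H3.3 model (WHL22.568244.0), which also carries 1 early H3 name, had a signal of 18923.1 in the morpholino library and 22463.6 in the glycerol library, from 7439 and 8485 reads. Its ratio of 0.842 (0.816 to 0.869) was the one histone interval below 1 with the deposited scaling, but at -0.04 relative it lay beside the median of all models. With the median of ratios the H3.3 model was at 0.96 (0.931 to 0.991), still below 1. H3.3 replaces H3 outside replication.

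The macroH2a model (WHL22.364840.0), with the names macroH2a.1 and macroH2a.2, had 413 reads in the morpholino library and 444 in the glycerol library, a ratio of 0.894 (0.78 to 1.02). MacroH2A carries a large extra domain and is associated with repressed chromatin in vertebrates. Of all histone reads, H2aZ took 76.2% in the morpholino library (75.8 to 76.6) and 73.5% in the glycerol library (73.1 to 74). H3.3 took 19.4% in the morpholino library (19 to 19.8) and 22.5% in the glycerol library (22.1 to 23). For each of H2aZ and H3.3 these intervals do not overlap. MacroH2a took 1.08% in the morpholino library (0.976 to 1.18) and 1.18% in the glycerol library (1.07 to 1.29), and its intervals overlap. The 27 models that are not variants took 3.33% (3.15 to 3.52) in the morpholino library and 2.72% (2.56 to 2.89) in the glycerol library. These are shares of reads, and since model lengths are not given they do not compare amounts of the genes. H2aZ alone sets most of the total, so the class sums below leave the variants out.

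Summed by class, the late models had 527 reads in the morpholino library and 308 in the glycerol library, a ratio of 1.64 (1.43 to 1.90). The ratio was 1.67 (1.43 to 1.96) over the 14 models whose only class word is late, and 1.48 (1.26 to 1.74) without the late H1 model. The 6 early models, leaving out the H3.3 model, had 329 reads in the morpholino library and 381 in the glycerol library, a ratio of 0.83 (0.714 to 0.964). Of these early reads, 237 in the morpholino library and 271 in the glycerol library lay on the H1 model also named Sp-Sirt-7. The H2a model also named Sp-Pars2 held 68 in the morpholino library and 70 in the glycerol library. The early sum is thus mostly from models whose reads may not all be histone reads. The 4 cleavage models had 419 reads in the morpholino library and 334 in the glycerol library, a ratio of 1.21 (1.04 to 1.40). Counting intervals of sums take the models as 1 pool and say nothing of the spread between embryos. Scaled by total reads, the early sum was at 0.80 (0.688 to 0.93), and 1 early model, that of H1, had an interval below 1. Scaled by the median of ratios, the early sum was at 0.946 (0.814 to 1.1), an interval that includes 1, and the late sum at 1.87 (1.63 to 2.16). All 5 early models of at least 1 CPM had ratios under 1 with the deposited scaling and 3 of them with the median of ratios, none with an interval that leaves out 1 under these scalings. Their relative median was -0.04, from -0.71 to 0.15.

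Because scaling moves every model alike, the class make-up of the reads within a library does not depend on it. Over the 14 late, 6 early and 4 cleavage models of a single class, late models held 37.7% of the reads in the morpholino library (35.0 to 40.5) and 26.7% in the glycerol library (23.9 to 29.6). Early models held 27.4% in the morpholino library (24.9 to 30.0) and 39.1% in the glycerol library (36.0 to 42.2). Most of these early reads lay on the H1 model also named Sp-Sirt-7. Cleavage models held 34.9% in the morpholino library and 34.3% in the glycerol library. The late and early shares were apart beyond their exact binomial intervals, and the cleavage shares were not. Without the H1 models the late share was 39.0% in the morpholino library (35.6 to 42.4) and 32.5% in the glycerol library (28.9 to 36.4), and these intervals overlap. The early share without H1 was 11.4% in the morpholino library (9.28 to 13.8) and 17.5% in the glycerol library (14.6 to 20.8), and these intervals do not overlap. Most of the early reads left without H1 lay on the H2a model also named Sp-Pars2.

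By type, the late share of H1 reads was 35.1% in the morpholino library (30.4 to 40.1) and 16.1% in the glycerol library (12.4 to 20.4). For H2A it was 40.2% in the morpholino library (33.8 to 46.8) and 25.3% in the glycerol library (19.3 to 32.1). Intervals did not overlap for either type. For H2B the late share was 90.4% in the morpholino library (85.1 to 94.3) and 83.7% in the glycerol library (76.8 to 89.1), and for H4 it was 12.3% in the morpholino library (9.30 to 16) and 7.07% in the glycerol library (4.43 to 10.6). These intervals overlap, and each share was higher in the morpholino library. The differences in share were not tested. The shares of a type add to a whole, so a higher late share is the same fact as a lower share of the other classes.

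**Figure D3:**
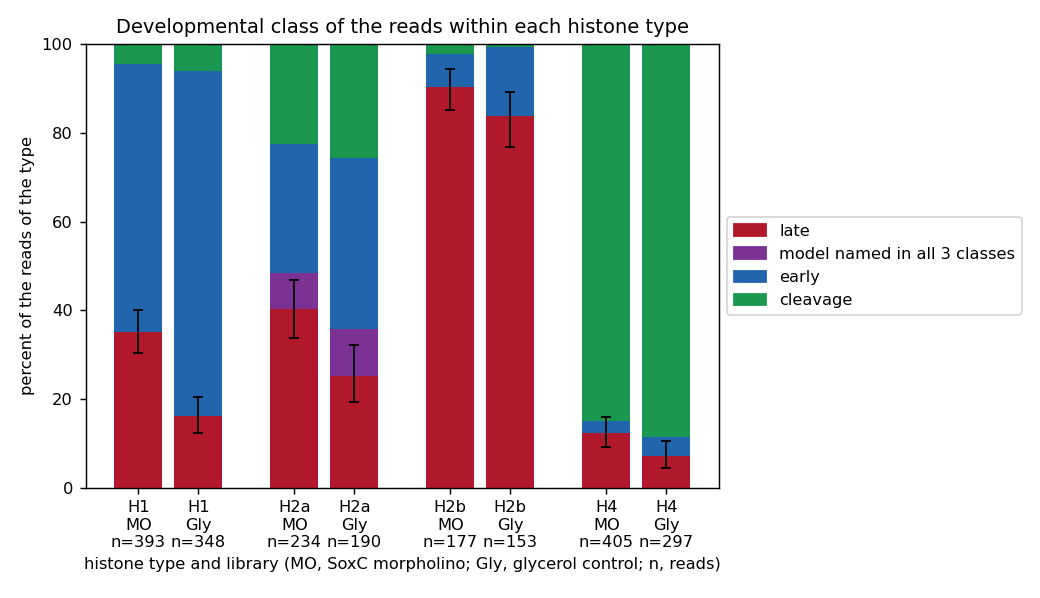
Percent of the reads of each histone type by class, with the morpholino library left of the glycerol library, and exact binomial 95% intervals of the late share as error bars; the H2A bars include the model named in all 3 classes. The late part of H1 is 35.1% in the morpholino library and 16.1% in the glycerol library.

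The reads were also set beside the number of annotated copies, within each class, as model lengths are not given and classes cannot be compared in amount. The 6 early models stand for 279 predictions and had 1.18 reads per prediction in the morpholino library and 1.37 in the glycerol library. Most of their reads lay on the H1 model also named Sp-Sirt-7. The 14 models named only late stand for 29 predictions, with 15.6 reads per prediction in the morpholino library and 8.97 in the glycerol library. The 4 cleavage models, with 4 predictions, had 105 reads per prediction in the morpholino library and 83.5 in the glycerol library. The number of predictions counts annotated copies of the assembly behind the tables, and some models also carry names that are not histone names.

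Genes that supply histones were read from lists of processing factors, chaperones and S-phase genes, for which the background shares are the 0.658% higher and 4.75% lower given above. Of 11 processing entries 5 had no matching name, of 17 chaperone entries 3, and of 33 S-phase entries 1. Measured here means at least 1 CPM. Of 6 measured models for histone mRNA processing, 0 met the size rule in either direction, and their relative median was -0.13. Intervals lay below 1 for 2 of them, against 25.6% of all models, and above 1 for 0, against 3.99%. The 2 were an SLBP model and Sp-CSTF2, at 0.729 (0.595 to 0.892). SLBP, which binds the stem-loop, had 2 models, placed on opposite sides. WHL22.46184.0 had 107 reads in the morpholino library and 143 in the glycerol library, a ratio of 0.719 (0.554 to 0.93), and WHL22.385492.0 had 78 in the morpholino library and 57 in the glycerol library, a ratio of 1.31 (0.923 to 1.88). Sp-LSM10, of the U7 snRNP that directs 3′ cleavage, had 31 reads in the morpholino library and 44 in the glycerol library, a ratio of 0.677 (0.413 to 1.10).

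By the size rule, 1 of 11 measured chaperone models was lower and 0 were higher, with a relative median of -0.16. Intervals lay below 1 for 7 of the 11, against 25.6% of all models. The median ratio of all models was itself 0.866, so a model with many reads can have such an interval beside it. Among the 7, Sp-Asf1a and Sp-Anp32bL lay at -0.06 relative, Sp-Rbbp-4 at -0.16 and Sp-SET at -0.23. The model lower by the size rule was Sp-Nasp, a carrier of H3 and H4 as well as H1. It had 9 reads in the morpholino library and 25 in the glycerol library, a ratio of 0.346 (0.142 to 0.766). Sp-NAP1L1, a chaperone of H2A and H2B, had 359 reads in the morpholino library and 679 in the glycerol library, a ratio of 0.508 (0.446 to 0.578), just short of 2-fold. Sp-Daxx, which in mammals deposits H3.3, had 59 reads in the morpholino library and 100 in the glycerol library, a ratio of 0.567 (0.404 to 0.79). Sp-Chaf1a, the large subunit of the replication-coupled assembly factor CAF-1, lay the other way, with 365 reads in the morpholino library and 281 in the glycerol library, a ratio of 1.25 (1.07 to 1.46). No other measured chaperone model had an interval above 1.

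By the size rule, 2 of 18 measured S-phase models were lower and 0 were higher, and the relative median was 0.07. The 2 were Sp-MCM6, a subunit of the replication helicase, at 5 reads in the morpholino library and 21 in the glycerol library, and a lesser model of the thymidylate synthase Sp-Tyms (WHL22.28181.4), at 14 reads in the morpholino library and 30 in the glycerol library. Their ratios were 0.229 (0.0674 to 0.623) and 0.448 (0.22 to 0.872). The main Sp-Tyms model (WHL22.563188.0) had 1883 reads in the morpholino library and 1645 in the glycerol library, a ratio of 1.10 (1.03 to 1.18). Sp-Rrm2, a subunit of ribonucleotide reductase, had 2211 reads in the morpholino library and 1731 in the glycerol library, a ratio of 1.23 (1.15 to 1.31). Sp-Cyclin E had 1071 reads in the morpholino library and 1113 in the glycerol library, a ratio of 0.925 (0.849 to 1.01). Sp-CDK2, its kinase partner, had 281 reads in the morpholino library and 438 in the glycerol library, a ratio of 0.616 (0.529 to 0.718). Intervals lay below 1 for 5 of the 18 models, against 25.6% of all models, and above 1 for 2, against 3.99%. Those below include Sp-MCM5 at 0.709 (0.562 to 0.892) and Sp-Rrm1 at 0.918 (0.849 to 0.993). S-phase genes therefore showed no common direction beside the late histones.

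**Figure D4:**
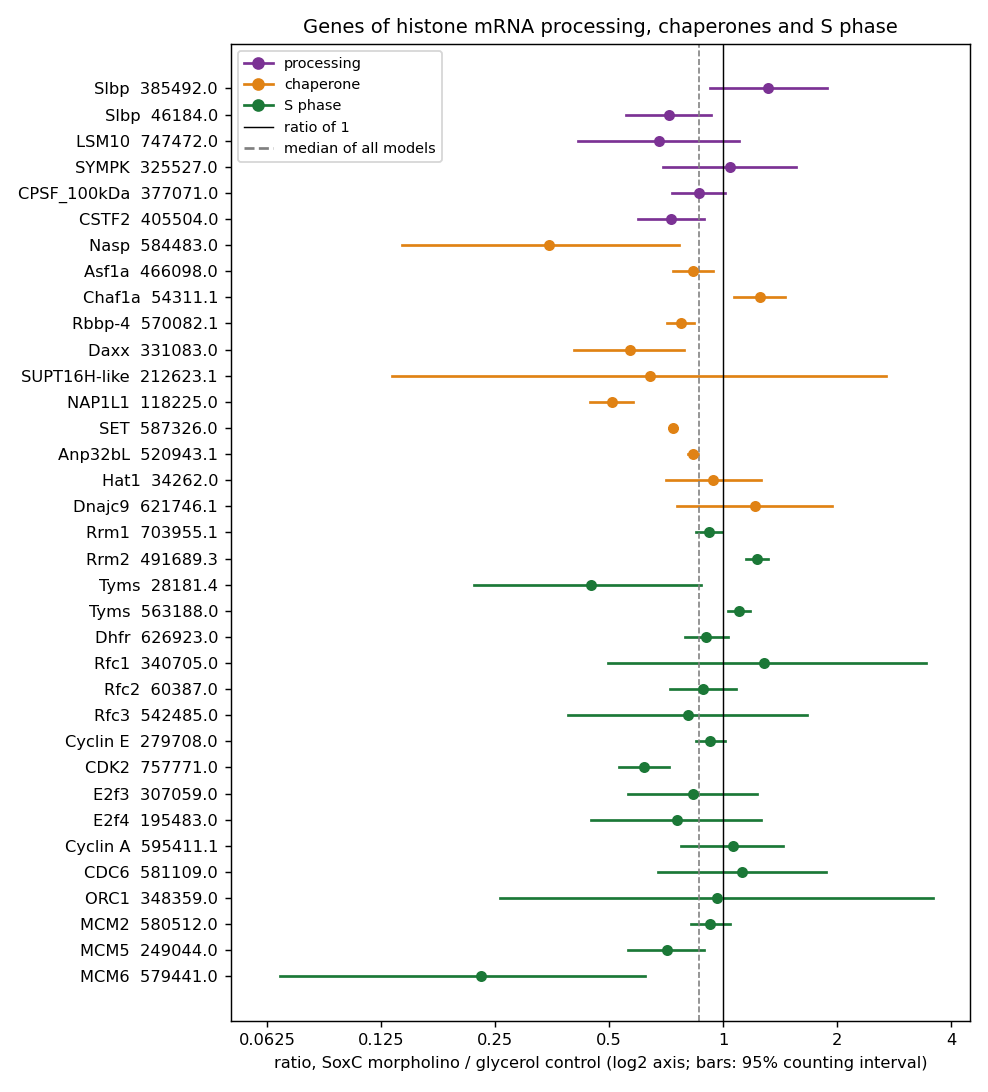
Ratio of the morpholino library over the glycerol library for 35 models of histone mRNA processing, chaperones and S phase of at least 1 CPM, on a log2 axis with 95% counting intervals. Sp-NAP1L1 at 0.508 and Sp-Chaf1a at 1.25 lie on opposite sides of 1.

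Since histone classes follow developmental time, stage genes were read beside them. Sp-Ets4, active in the early blastula, had 4175 reads in the morpholino library and 2626 in the glycerol library, a ratio of 1.53 (1.45 to 1.60), while Sp-Univin, a TGF-beta family ligand gene, was at 1.02 (0.928 to 1.12). Among genes of differentiating tissue, SpSM50, a spicule matrix gene, was at 0.979 (0.935 to 1.02), Sp-spec2a of the aboral ectoderm at 0.76 (0.744 to 0.776), the pigment cell regulator Sp-gcm at 1.24 (1.18 to 1.32), and the pigment synthesis gene Sp-Ployketide_synthase_like at 1.36 (1.35 to 1.38). The remaining entry with a value, the spicule matrix gene Sp-SM37, had 1 read in the morpholino library and 2 in the glycerol library, and 7 of the 14 entries had no matching name. These genes gave no single direction, and the part of stage in the late histone values was not tested.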

How the data were processed

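Whole-embryo RNA was sequenced in 2 libraries, and groups came from the sample titles. Per the submitters' processing notes, CASAVA 1.8 and Bowtie were used; what counted and normalized the reads, the genome build and the library kit were not given in the sources used here. The authors deposited a normalized signal per transcript model, repeated on every row of a model. The 4326 models blank in both libraries were treated as missing. Division of the signal by a step of 2.54 (morpholino) or 2.65 (glycerol) gave whole reads within 0.1 for 99.985% and 99.977% of models.

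Ratios used the deposited scaling, and log2 ratios a pseudocount of 0.5 reads, which understates changes of models with few reads. Intervals are exact Clopper-Pearson at 95%; whether reads are separate molecules is not known. The size rule asked for a mean of at least 1 CPM, 2-fold and an interval without 1. No ratio is given where both libraries had 3 reads or fewer. All members with a value are named, with a ratio, an interval or both from 20 reads over both libraries. The members, lists and alternatives were chosen with earlier results of these data known, and list entries were matched to names with values in view. No identifier matched the gene table at hand, so no position or sequence is given. Scripts ran in Python 3.11.15 with numpy 2.4.6, scipy 1.17.1, pandas 2.3.3 and matplotlib 3.10.9, and were tested on simulated data.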

Additional observations from a re-analysis of the deposited data

How the results depend on the processing

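Against 3 higher histone models, the median of ratios gave 7, total reads without the most abundant model (chosen after seeing the data) 7, 1.5-fold 6, 3-fold 0, a floor of 5 CPM 1, and an exact binomial test per model, Benjamini-Hochberg adjusted over all models, 5. The 7 were the 3 with H4a and H4c, H2ac, H2bj and the mixed early and late H3 model WHL22.283838.0. The binomial test compares these libraries, not the conditions, and called 220 higher and 1555 lower models in all. Its 5 higher histone models kept late H1 and the model of H2ad, H2ag and H2aj. It left out the late H4 model WHL22.8495.0, which met the size rule. The others were H2bj, WHL22.283838.0 and cleavage H4, each under 2-fold. Against 0 lower histone models the binomial test called 1, the H3.3 model. Total reads, no floor and models with only histone names kept the higher count within 1.5 times. For all models, 58 higher and 419 lower became 129 and 221 with the median of ratios, which moves their median log2 ratio from -0.21 to -0.02. The late median of 0.60 ran from 0.52 with a pseudocount of 2 to 0.91 with a floor of 5 CPM. The median of models not named late, -0.16, changed sign to 0.03 with the median of ratios. The summed late ratio ran from 1.48 to 1.87. A change of scaling multiplies every ratio by 1 constant, and under total reads 4 histone intervals lay below 1. The low read numbers limit most single models. No paired analysis was possible because neither group has a second library.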

Other observations

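Because the centromeric H3 model was blank, models named for other centromere proteins were read, a list chosen after the values were seen. All 5 lay above the median of all models, as 50% of all models do, with a relative median of 0.39. Sp-Cenpk had 94 reads in the morpholino library and 40 in the glycerol library, a ratio of 2.26 (1.54 to 3.36) that met the size rule, as 0.658% of all models did. Sp-CenpnL was at 1.58 (0.836 to 3.08), Sp-Cenpc1l at 1.13 (0.819 to 1.57), Sp-Cenpi at 1.11 (0.871 to 1.41) and Sp-Cenpp at 1.07 (0.39 to 2.97), each with an interval that includes 1.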
